A study of Drosophila melanogaster with 30 samples.

Results

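To compare a deeper with a milder cold exposure, the 3 rRNA-depleted (rRNA−) libraries from flies cooled to 4°C were set against the 3 rRNA− libraries from flies cooled to 10°C, 6 of the 30 libraries of the study. The members were chosen by temperature and library type alone, and the 3 rRNA− libraries at 25°C entered no test of this comparison and were used only to place the levels. Each library was made from a pool of 6 whole adult *Drosophila melanogaster* females of Canton S, a wild-type laboratory strain, reared at 25°C. The 4°C group and the 10°C group were cooled from 25°C in a water bath at 0.25°C/min, so that cooling took 84 min to 4°C and 60 min to 10°C, and the 25°C group stayed at the rearing temperature. The sample records give a hold of 0 min at both cold temperatures, whereas the methods of the study give 5 min at 4°C and 0 min at 10°C. Depth of cold, length of cooling and any hold therefore cannot be told apart. Ribosomal RNA was depleted before a stranded library was made, and 85 bp reads were taken. Of the 30 libraries 15 were polyA-selected (polyA+), and those at 4°C and 10°C are given beside the rRNA− values. The remaining rRNA− libraries came from heat-exposed flies and entered only an alternative fit of all 15 rRNA− libraries.

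As background, Drosophila is an ectotherm, so that its tissues follow the temperature of the bath. Chilling slows enzymes and membrane transport, and adult flies lose movement in a chill coma when ion gradients across muscle and nerve can no longer be kept. Mitochondria supply the ATP for ion pumping through the respiratory chain (complexes I to IV) and ATP synthase, most subunits of which are encoded in the nucleus and a few, together with both mitochondrial rRNAs, in mitochondrial DNA. A whole female also holds a large ovary, in which long maternal mRNAs are stored, and a midgut that makes trypsin-like and chymotrypsin-like proteases in bulk. RNA from whole animals sums all these tissues, so that fewer cells of a type and less RNA per cell cannot be told apart.

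The equalized counts, from which rRNA reads had been removed, came to 2863701 to 3786589 per library at 4°C, 2067003 to 2844006 at 10°C and 4033358 to 4897449 at 25°C. Levels below are CPM, counts scaled to a common library size by TMM over these 9 libraries. Markers of females were present in all 9, among them Yp1, a yolk protein, at 11590 CPM or more. Of 18 genes listed for the male accessory gland and testis, 16, among them the Acp, Mst and SP genes, averaged 0.271 CPM or less in every group, and the other two, fzo and bol, averaged 3.20 and 43.4 CPM at 4°C. The third 4°C library stood apart. Its equalized count was 89.3% of its full count, against 41.3% to 52.3% in the other 8, and its snoRNAs summed to 683 CPM, against 6716 and 9891 CPM in the other 4°C libraries and 7832 to 9992 CPM at 10°C. Values without this library are given where they bear on a result.

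No gene passed an adjusted p of 0.05 between 4°C and 10°C in the main test. edgeR's quasi-likelihood test called 0 genes higher (0.0%) and 0 genes lower (0.0%) among 9025 tested, with or without a 2-fold minimum, and the smallest adjusted p was 0.0729. At an unadjusted p under 0.05 there were 598 genes higher at 4°C (6.63%) and 387 lower (4.29%), 985 genes in all. DESeq2's Wald test, run as an alternative, called 6 genes higher (0.195%) and 19 lower (0.618%) among the 3076 genes to which it gave an adjusted p, and 76 (2.47%) and 46 (1.5%) without the 2-fold minimum. All 3 libraries at 4°C lay above all 3 at 10°C for 868 genes (9.62%) and below for 723 (8.01%). Genes and groups below are therefore described by their values, and none of them passed the edgeR test.

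By median correlation, the levels at 4°C lay closer to those at 25°C than did the levels at 10°C. Across 9025 genes the median Spearman correlation between a 4°C and a 25°C library was 0.965 (9 pairs), against 0.949 between a 10°C and a 25°C library and 0.943 between a 4°C and a 10°C library. These are descriptions across genes of pairs that share libraries, and pairs within a group ranged from 0.925 to 0.966 at 4°C, 0.946 to 0.969 at 10°C and 0.959 to 0.976 at 25°C. The third 4°C library correlated at 0.904 to 0.938 with 10°C and 0.948 to 0.956 with 25°C. The first and second correlated at 0.933 to 0.966 with 10°C and 0.959 to 0.972 with 25°C. Counts per library were lowest at 10°C and highest at 25°C, and the part of depth in these correlations was not tested. For 97 genes the 3 temperatures did not overlap at all. The 4°C libraries lay in the middle for 79 of these genes (81.4%), the 25°C libraries for 15 (15.5%) and the 10°C libraries for 3 (3.09%). An order that continues from 25°C through 10°C to 4°C was thus met in 3 genes, and in the others of the 97 the 10°C libraries were at one end. This count rests on few genes and moved with the libraries used, from 3.09% to 11.4% (40 of 351 genes) without the first 4°C library, 12.2% (20 of 164) without the third 10°C library and 12.1% (8 of 66) with the trend on gene length removed. These counts describe means and ranges of libraries and were not tested. In a fit of these 9 libraries edgeR called 0 genes higher and 0 lower at 4°C against 25°C, and 11 higher (0.116%) and 41 lower (0.432%) at 10°C against 25°C, with 320 and 2045 of 9481 genes at an unadjusted p under 0.05. Leaving out single libraries moved the share of separated genes with 4°C in the middle between 67.1% and 90.4%. The difference between these counts of calls was not tested.

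The order in which 10°C was lowest and 25°C highest held for 57 genes, of a median exonic length of 5809 bases against 2189 bases over all genes tested. It included gce, a juvenile hormone receptor, at a mean of 124 CPM at 4°C, 86.8 CPM at 10°C and 151 CPM at 25°C, and cwo, a transcriptional repressor of the circadian clock, at 95.9, 71.0 and 139 CPM. It also held nrv3, a subunit of the neuronal sodium and potassium pump, at 91.3 CPM at 4°C, 56.3 CPM at 10°C and 154 CPM at 25°C. The opposite order, with 25°C lowest and 10°C highest, held for 22 shorter genes of a median of 1034 bases. Among them were the ribosomal stalk proteins RpLP1, at 1850 CPM at 4°C, 2203 CPM at 10°C and 1617 CPM at 25°C, and RpLP2, at 2261, 2806 and 2053 CPM.

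The 3 genes whose levels stepped on in the same direction in the equalized counts were CG16758, CG10096 and CG43351. CG16758 had 95.9, 110.0 and 107 CPM at 4°C, 60.3, 91.9 and 87.5 CPM at 10°C and 50.7, 46.2 and 50.9 CPM at 25°C. The other two ran the opposite way, with the third 4°C library the lowest of its group in both. CG10096 had 20.8, 21.8 and 9.88 CPM at 4°C, 22.8, 26.7 and 33.8 CPM at 10°C and 37.4, 39.7 and 41.2 CPM at 25°C, and CG43351 averaged 13.5 CPM at 4°C, 26.0 CPM at 10°C and 36.4 CPM at 25°C. The exons of CG10096 coincide with those of CG10097 on the same strand, and its counts were 75, 64 and 38 at 4°C and 62, 77 and 68 at 10°C in the equalized table but 136, 64 and 38 at 4°C and 62, 13 and 62 at 10°C in the full table, where the groups overlapped. Its order therefore depends on how reads were divided between both genes, and their sum averaged 118 CPM at 4°C, 120.4 CPM at 10°C and 125 CPM at 25°C with overlapping libraries. The differences of the 3 genes between 4°C and 10°C, 0.38 ± 0.19 (log2 fold change ± SE, as throughout), -0.67 ± 0.32 and -0.96 ± 0.37, had edgeR adjusted p of 0.493, 0.489 and 0.399.

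In the 15 genes whose 25°C libraries lay in the middle, the cold groups stood on opposite sides of the rearing temperature. LIMK1, a kinase that acts on the actin regulator cofilin, had 97.8, 104 and 97.7 CPM at 4°C, 73.6, 68.3 and 78.5 CPM at 10°C and 92.0, 94.4 and 88.8 CPM at 25°C. Atg6, a core component of autophagy, ran the other way with 24.4, 21.1 and 25.0 CPM at 4°C, 39.4, 33.7 and 34.8 CPM at 10°C and 25.3, 27.1 and 29.4 CPM at 25°C. In both genes the 4°C and 25°C libraries were close together.

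The 10 genes of smallest p on the higher side were PGRP-LD, smg, skd, psq, CG8677, bru1, pcs, ovo, Mes2 and pum, with log2 fold changes of 0.70 to 4.79 and edgeR adjusted p of 0.0729 to 0.273. Several are RNA-binding proteins or regulators of the female germline. The levels of smg (chr3L:8990317-8997989, minus strand), which encodes the translational repressor Smaug, were 625, 481 and 575 CPM at 4°C, 258, 322 and 293 CPM at 10°C and 405, 574 and 551 CPM at 25°C. All 3 at 4°C lay above all 3 at 10°C and overlapped those at 25°C. The difference was 0.95 ± 0.16 (edgeR adjusted p = 0.273). The gene bru1 (chr2L:12175004-12313438, plus strand) encodes Bruno, which represses oskar mRNA in the oocyte, and had 510, 406 and 570 CPM at 4°C, 279, 269.6 and 289 CPM at 10°C and 409, 587 and 563 CPM at 25°C. The 10°C libraries were low and close together, and those of the other temperatures overlapped. The transcription factor ovo (chrX:5048273-5070929, plus strand), needed in the female germline, had 259, 249 and 272 CPM at 4°C, 155, 150.2 and 175 CPM at 10°C and 215, 262 and 289 CPM at 25°C. The same arrangement was seen for pum (chr3R:9066343-9237682, minus strand), encoding the mRNA-binding protein Pumilio, with 227, 155 and 241 CPM at 4°C against 98.6, 114 and 112 CPM at 10°C, and for skd, encoding the Mediator subunit Med13, with 325, 299 and 271 CPM against 166, 177 and 180 CPM. Set beside 25°C, these 10 genes had a median log2 difference of -0.01 at 4°C and -0.88 at 10°C.

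The 10 genes of smallest p on the lower side were CG11891, CG42455, Sodh2, GstS1, LysC, COX4, ATPsynD, CG8661, COX7C and Neb-cGP, with log2 fold changes of -8.86 to -0.63 and edgeR adjusted p of 0.0916 to 0.273. Of these, COX4 (chr2L:19958713-19960065, plus strand) and COX7C are subunits of cytochrome c oxidase and ATPsynD a subunit of ATP synthase. COX4 had 417, 404 and 385 CPM at 4°C, 671, 595 and 626 CPM at 10°C and 509, 349 and 393 CPM at 25°C. The 4°C libraries agreed closely and lay below all at 10°C (-0.65 ± 0.14, edgeR adjusted p = 0.273). GstS1, a glutathione transferase of flight muscle, had 144, 152 and 152 CPM at 4°C against 249, 228 and 241 CPM at 10°C, while the 25°C libraries spread from 145 to 266 CPM. Sodh2, a sorbitol dehydrogenase of the polyol pathway, had 9.42, 14.3 and 9.10 CPM at 4°C, 40.1, 27.4 and 25.4 CPM at 10°C and 11.1, 11.6 and 16.5 CPM at 25°C, so that only the 10°C libraries stood above the rest (-1.51 ± 0.29). Against 25°C, the 10 genes had a median log2 difference of -0.13 at 4°C and 0.71 at 10°C. For 9 of the 10 genes on each side the 10°C libraries did not overlap those at 25°C, whereas the 4°C libraries overlapped those at 25°C for all 20. The 20 genes were picked because their 4°C and 10°C libraries did not overlap, and the same libraries enter these counts and medians. They therefore describe the picked genes only and give no result about where 4°C lies.

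**Figure D1:**
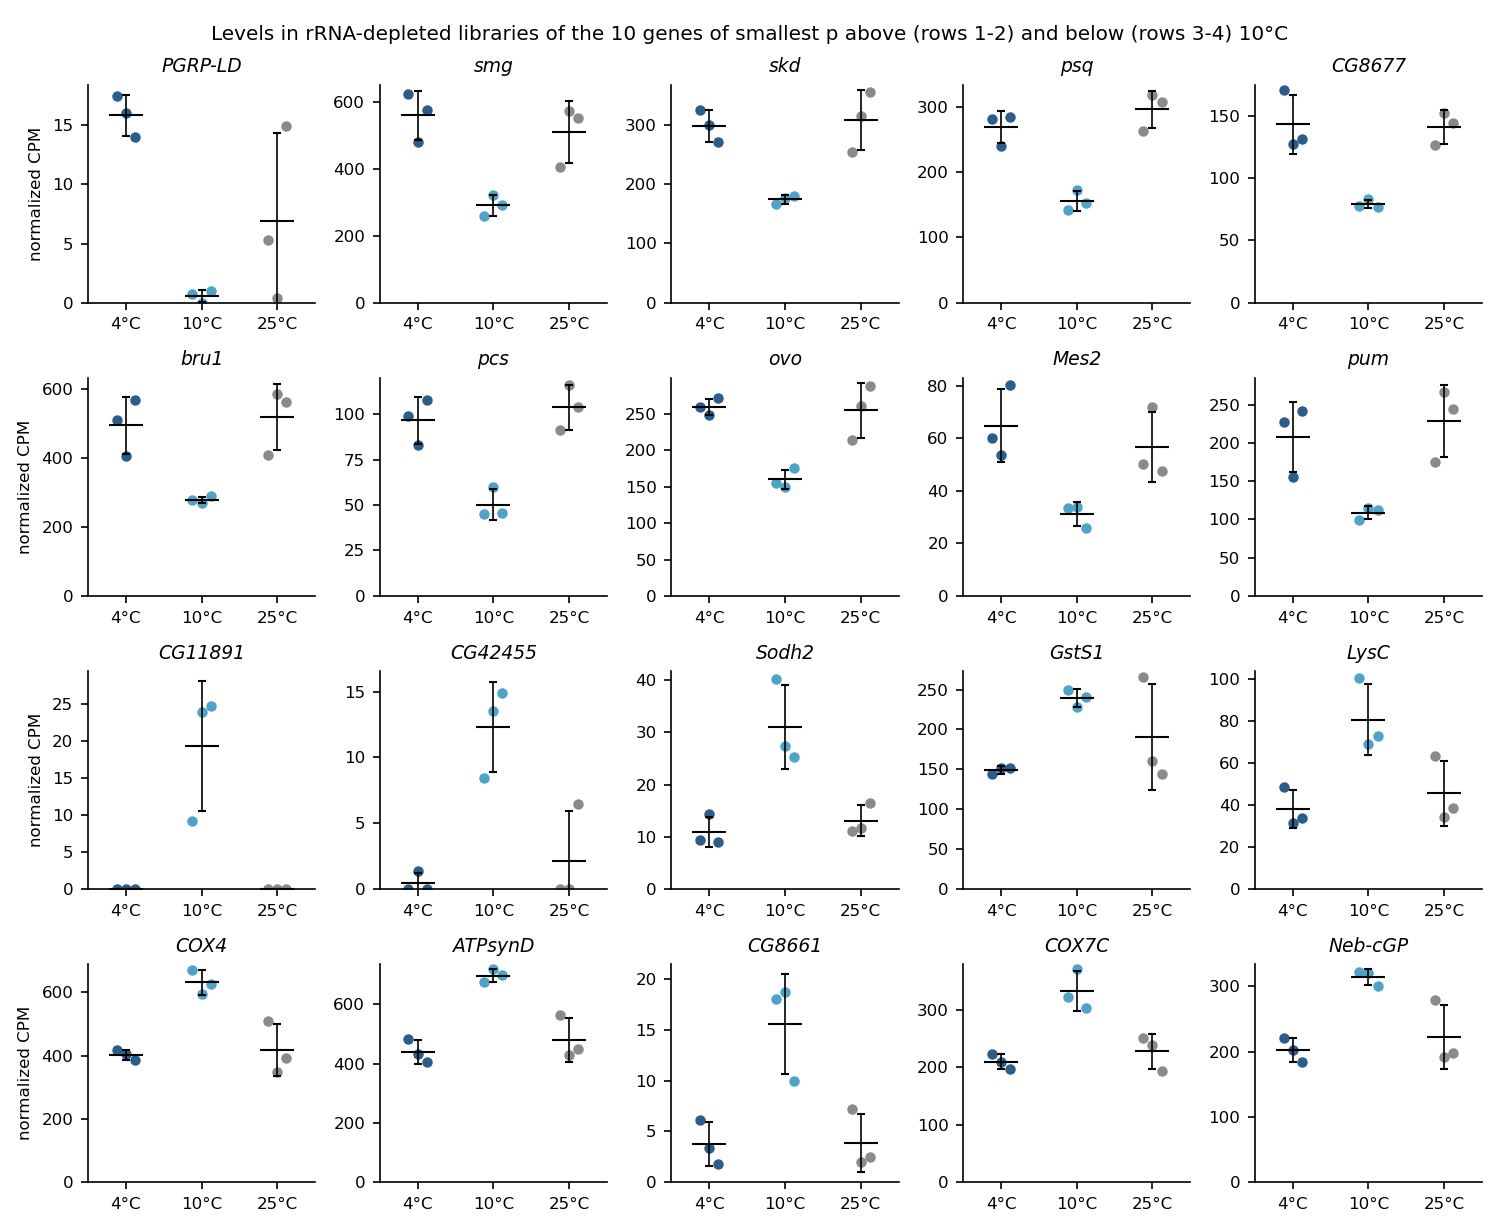
Normalized CPM (vertical axis, from 0) of the 10 genes of smallest p on each side in each rRNA− library at 4°C, 10°C and 25°C (horizontal axis). Points are libraries, and black lines are the mean and SD of 3 libraries. The 10°C libraries stand below the others for smg, bru1 and pum and above them for COX4, ATPsynD and Sodh2, while 4°C and 25°C overlap in all 20 genes.

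The genes of smallest p in both directions, PGRP-LD and CG11891, and also CG42455, overlap another gene on the same strand. PGRP-LD (chr3L:5780051-5784685, plus strand), annotated as a peptidoglycan recognition protein gene, shares most of its exons with Pmi. It had 63, 47 and 54 counts at 4°C, against 2, 0 and 2 counts at 10°C, whereas Pmi had 33, 37 and 89 counts at 4°C and 78, 92 and 64 counts at 10°C. The sum of both genes was 30.8 CPM at 4°C, 31.4 CPM at 10°C and 26.6 CPM at 25°C, a ratio of 0.981 between 4°C and 10°C. In the full counts of the same libraries the sum was again 96, 84 and 143 at 4°C and 80, 92 and 66 at 10°C, but PGRP-LD held 2, 47 and 54 of these counts at 4°C and 63, 0 and 42 at 10°C. The sums were equal in both tables of the same libraries while their division was not. On the full counts the log2 fold change of PGRP-LD was -0.52, of opposite sign.

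The same held for CG11891 (chr3R:25270209-25273267, plus strand), whose exons lie wholly within those of CG11889. CG11891 had 0, 0 and 0 counts at 4°C and 25, 69 and 50 at 10°C, at least 63.8-fold lower at 4°C when 3 counts over the group are taken as its floor. The sum with CG11889 was 29.4 CPM at 4°C and 28.9 CPM at 10°C, and in the full counts CG11891 held 97, 0 and 0 counts at 4°C and 25, 0 and 0 at 10°C. CG42455 and vnc summed to 110.0 CPM at 4°C and 108 CPM at 10°C. For all 3 pairs the summed libraries at 4°C and 10°C overlapped, so the difference is seen in single genes and not in the pair. Among the 9025 genes, 261 overlapped a gene on the same strand by at least 50% of their exons, and without them edgeR again called 0 genes, with a smallest adjusted p of 0.236 and 992 genes at an unadjusted p under 0.05. This alternative was chosen after the data were seen.

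**Figure D2:**
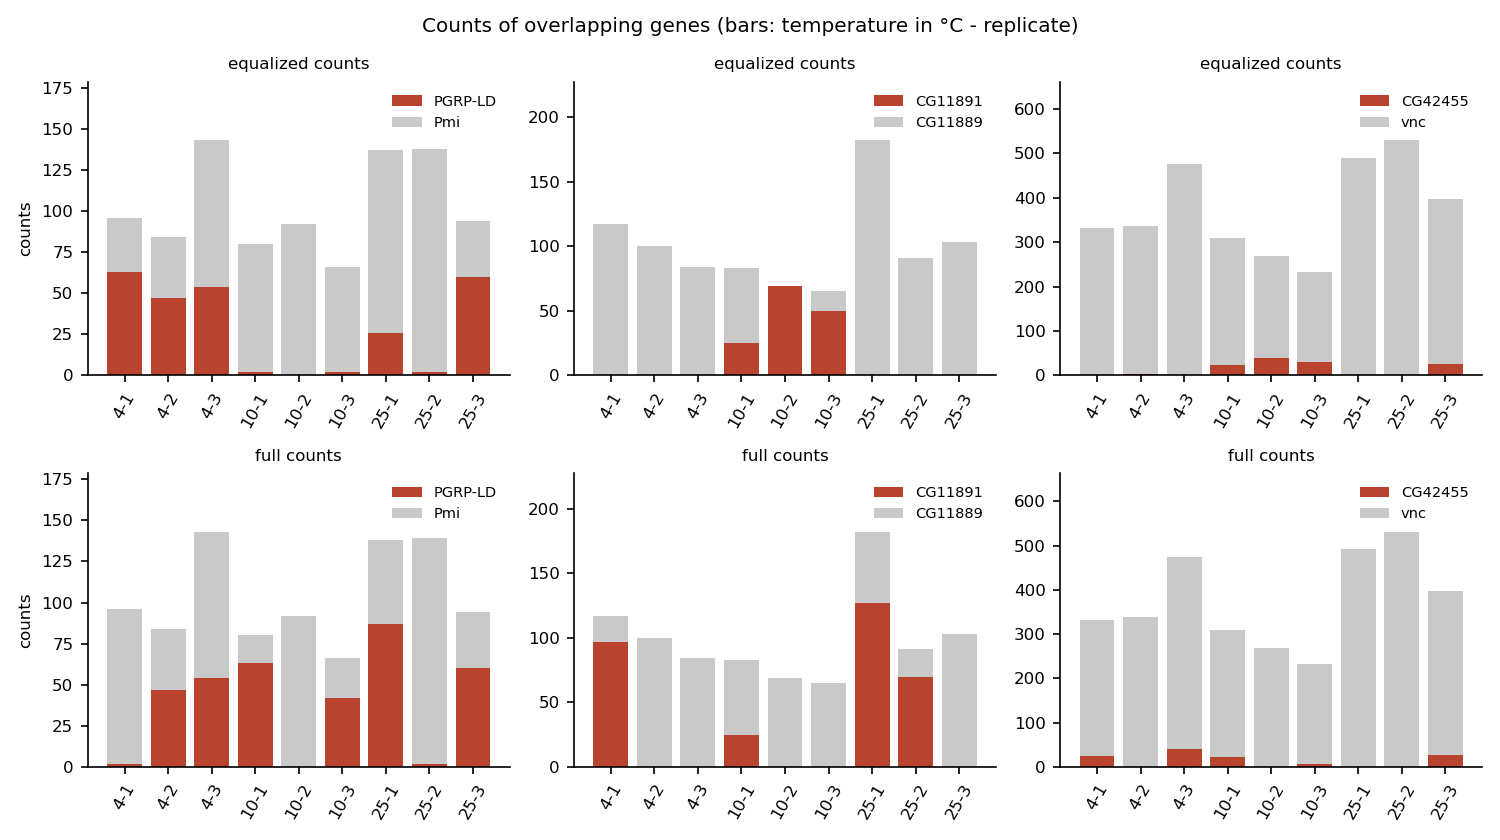
Counts (vertical axis) of PGRP-LD, CG11891 and CG42455 (red) stacked on those of the overlapping genes Pmi, CG11889 and vnc (grey) in each rRNA− library, named by temperature in °C and replicate, in the equalized counts (top) and the full counts (bottom). The height of each stack is the same in both tables to within a few counts, while its division differs, for instance 63 and 2 counts of PGRP-LD in the first 4°C library.

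On the higher side DESeq2 called mt:lrRNA, wisp, stg, Unr, zld and G9a. At the same thresholds DESeq2 made 12 calls on simulated counts in which no gene was changed, so its calls are read with that limit. The gene wisp encodes the poly(A) polymerase Wispy of oocytes and eggs, and had 309.8, 172 and 213 CPM at 4°C, 70.6, 125 and 93.5 CPM at 10°C and 143, 331 and 249.7 CPM at 25°C (1.26 ± 0.27, DESeq2 adjusted p = 0.00118, edgeR adjusted p = 0.273). Its 10°C libraries were below all others. The same was true of zld, encoding Zelda, the activator of the early zygotic genome, with 188, 129 and 207 CPM at 4°C, 39.4, 100.3 and 85.5 CPM at 10°C and 131 to 256 CPM at 25°C. On the lower side 4 of the 19 were Jonah proteases and 2 were lysozymes. LysB, a midgut lysozyme, had 133, 118 and 57.7 CPM at 4°C, 278, 324 and 225 CPM at 10°C and 167, 122 and 145 CPM at 25°C, with the 10°C libraries alone above the rest (-1.43 ± 0.31, DESeq2 adjusted p = 0.000284, edgeR adjusted p = 0.273). LysB, LysC and LysD are similar in sequence, and the equalized table holds fewer of their reads than the full one. On the full counts LysB had 313, 255 and 71.5 CPM at 4°C, 506, 594 and 454 CPM at 10°C and 481, 297 and 369 CPM at 25°C, so that 4°C again lay below 10°C but 10°C and 25°C overlapped.

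Nuclear genes of oxidative phosphorylation lay below their 10°C levels at 4°C in most members. Of 60 measured subunits, 51 had all 3 libraries at 4°C below all 3 at 10°C (85%, against 8.01% of all genes) and 0 had them above. At an unadjusted p under 0.05, 48 were lower and 0 higher, with 4.29% and 6.63% as the background. None passed the edgeR threshold, and 15 had an adjusted p under 0.05 in DESeq2's test, all of them lower. The median log2 fold change was -0.57, against -0.01 over all genes. Summed over the list, the level was 17925, 15614 and 15361 CPM at 4°C, 24553, 22920.5 and 22394 CPM at 10°C and 20593, 15437 and 15631 CPM at 25°C, so that the 4°C libraries lay below every 10°C library and overlapped those at 25°C. Without the third 4°C library the median was -0.48, and with the trend on gene length removed it was -0.41.

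Such members came from complexes I, III and IV and from ATP synthase. Of those named here after their values were seen, COX5A, a subunit of complex IV, had 746, 707 and 729 CPM at 4°C, 1261, 1025 and 1036 CPM at 10°C and 989, 665 and 701 CPM at 25°C (-0.61 ± 0.15). In complex I, ND-30 was at -0.59 and ND-23 at -0.57. In complex III, UQCR-C2 was at -0.61, and in ATP synthase ATPsynB was at -0.60 and ATPsynD at -0.66. The most abundant member, ATPsynC, which builds the membrane ring of ATP synthase, had 2460, 1838 and 2174 CPM at 4°C, 2177, 3285 and 2584 CPM at 10°C and 3016, 2710 and 2395 CPM at 25°C. Its groups overlapped (-0.31 ± 0.19, edgeR adjusted p = 0.594). The members with a positive log2 fold change were UQCR-11 (0.17) and ND-AGGG (0.03). ND-AGGG had 9 to 31 equalized counts in these 6 libraries, and on the full counts, which hold more of its reads, it had 79.3, 73.4 and 32.9 CPM at 4°C and 109, 114 and 102 CPM at 10°C, so that it too lay below. Proteins of the mitochondrial ribosome had a smaller median of -0.17, with 14 of 71 members below at 4°C in all libraries (19.7%, against 8.01% of all genes) and 0 above. These are short genes, of a median of 783 bases, and among the shortest eighth of all genes 17.5% lay below, with a median of -0.23.

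Transcripts of mitochondrial DNA did not lie below 10°C as a group in the rRNA− libraries. The large rRNA mt:lrRNA (positions 12735 to 14058 of the mitochondrial genome, minus strand) had 4946, 2100 and 4757 CPM at 4°C, 1048, 1546 and 1022 CPM at 10°C and 7670, 11103 and 9670 CPM at 25°C. Each temperature occupied a range of its own, with 4°C in the middle, and the difference between 4°C and 10°C was 1.71 ± 0.35 (edgeR adjusted p = 0.273, DESeq2 adjusted p = 7.31e-06). The small rRNA mt:srRNA had 2177, 1524 and 10032 CPM at 4°C, 991, 979 and 689 CPM at 10°C and 9292, 8314 and 5695 CPM at 25°C, so that the third 4°C library lay above the 25°C range and the other two stood between 10°C and 25°C, nearer to 10°C. The summed share of both rRNAs was 0.861% ± 0.581 at 4°C, 0.206% ± 0.0456 at 10°C and 1.73% ± 0.212 at 25°C, with SDs over 3 libraries. Without the third 4°C library the median log2 difference of both genes between 4°C and 10°C was 1.31, against 2.04 with it. The third 4°C library was also the one with few rRNA reads, and the part of rRNA depletion in these values was not tested. Of 11 measured mitochondrial mRNAs, 7 had a positive and 4 a negative log2 fold change, with a median of 0.28. The most abundant, mt:CoI, had 7088, 5589 and 7071 CPM at 4°C against 8877, 6958 and 7039 CPM at 10°C, which overlapped.

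Glycolytic enzymes lay on the same side as the nuclear respiratory genes but by less. Of 13 genes, 10 had all libraries at 4°C below 10°C (76.9%, against 8.01% of all genes) and 1 above, 6 were lower at an unadjusted p under 0.05 (against 4.29% of all genes), and the median was -0.33. Ald1, an aldolase and the most abundant, had 1688, 1236 and 1395 CPM at 4°C, 2191, 2058 and 1943 CPM at 10°C and 1860, 1336 and 1299 CPM at 25°C. No 4°C library reached the 10°C range (-0.52 ± 0.16, edgeR adjusted p = 0.314). Gapdh1, glyceraldehyde-3-phosphate dehydrogenase, was at -0.68 ± 0.17 and PyK, pyruvate kinase, at -0.45 ± 0.16. Summed glycolytic levels averaged 8037 ± 545 CPM at 4°C, 10636 ± 956 CPM at 10°C and 8192 ± 1188 CPM at 25°C (SD, n = 3 each). Sarcomere genes had a median of -0.14 over 25 members and 3 lower and 0 higher at an unadjusted p under 0.05, beside 4.29% and 6.63% of all genes. The flight muscle actin Act88F had 652, 458 and 301 CPM at 4°C against 1148, 858 and 962 CPM at 10°C (-1.07 ± 0.27, DESeq2 adjusted p = 0.00408), while myosin heavy chain Mhc had 3802, 3608 and 3999 CPM at 4°C against 5173, 3797 and 4087 CPM at 10°C.

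Photoreceptor genes lay in part below their 10°C levels. Of 16 phototransduction genes, 6 lay below 10°C in all libraries (37.5%, against 8.01% of all genes) and the same number were lower at an unadjusted p under 0.05 (against 4.29%), with a median of -0.39. Arr2, the main arrestin that ends the light response, had 421, 359.6 and 314 CPM at 4°C, 551, 548 and 445 CPM at 10°C and 427, 313 and 344 CPM at 25°C, and the 4°C and 25°C libraries overlapped (-0.50 ± 0.17, edgeR adjusted p = 0.334). The light-activated channel gene trp was at -0.36 ± 0.14. The most abundant member, ninaE, which encodes the rhodopsin of the outer photoreceptors, had 941, 791 and 1001 CPM at 4°C against 865, 993 and 800.3 CPM at 10°C, which overlapped.

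Digestive proteases had the lowest median of the lists shown in the plot of list medians. All 23 measured trypsins, chymotrypsins and Jonah proteases had a negative log2 fold change, with a median of -1.41, and for 19 of them all 3 libraries at 4°C lay below those at 10°C (82.6%, against 8.01% of all genes). Of the list, 11 were lower at an unadjusted p under 0.05 (against 4.29% of all genes), 0 passed edgeR and 5 had a DESeq2 adjusted p under 0.05. The summed level was 6969, 4055 and 1668 CPM at 4°C, 11815, 9511 and 10475 CPM at 10°C and 6879, 2869 and 4686 CPM at 25°C. Both the 4°C and the 25°C libraries were spread widely, and the 10°C libraries were all higher. Without the first 4°C library, which was the highest of its group, the median was -2.13 and 9 of the proteases were called lower by edgeR. Without the third it was -1.05 and 0 were called.

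Jon65Aiv (chr3L:6039155-6040135, plus strand), the most abundant protease, had 998, 696 and 322 CPM at 4°C, 1586, 1261 and 1650 CPM at 10°C and 856, 450 and 715 CPM at 25°C. Its 4°C and 25°C levels overlapped, below the 10°C libraries (-1.16 ± 0.39, edgeR adjusted p = 0.383). Neighbouring Jonah genes are similar in sequence, so that reads may be divided among them. Other midgut products lay on the same side. Of 9 lysozymes and lipases, 9 had a negative log2 fold change and 5 were lower at an unadjusted p under 0.05 (against 4.29% of all genes), with a median of -1.08. Without the third 4°C library 7 of the 9 had a negative one, with a median of -0.88. LysD, the most abundant midgut lysozyme, had 413, 345 and 173 CPM at 4°C, 698, 767 and 568 CPM at 10°C and 582, 363 and 442 CPM at 25°C. Amylases, maltases and other enzymes of carbohydrate digestion had a median of -0.99 over 18 genes. However, 1 was lower at an unadjusted p under 0.05 (against 4.29% of all genes) and 3 lay below in all libraries (16.7%, against 8.01%).

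**Figure D3:**
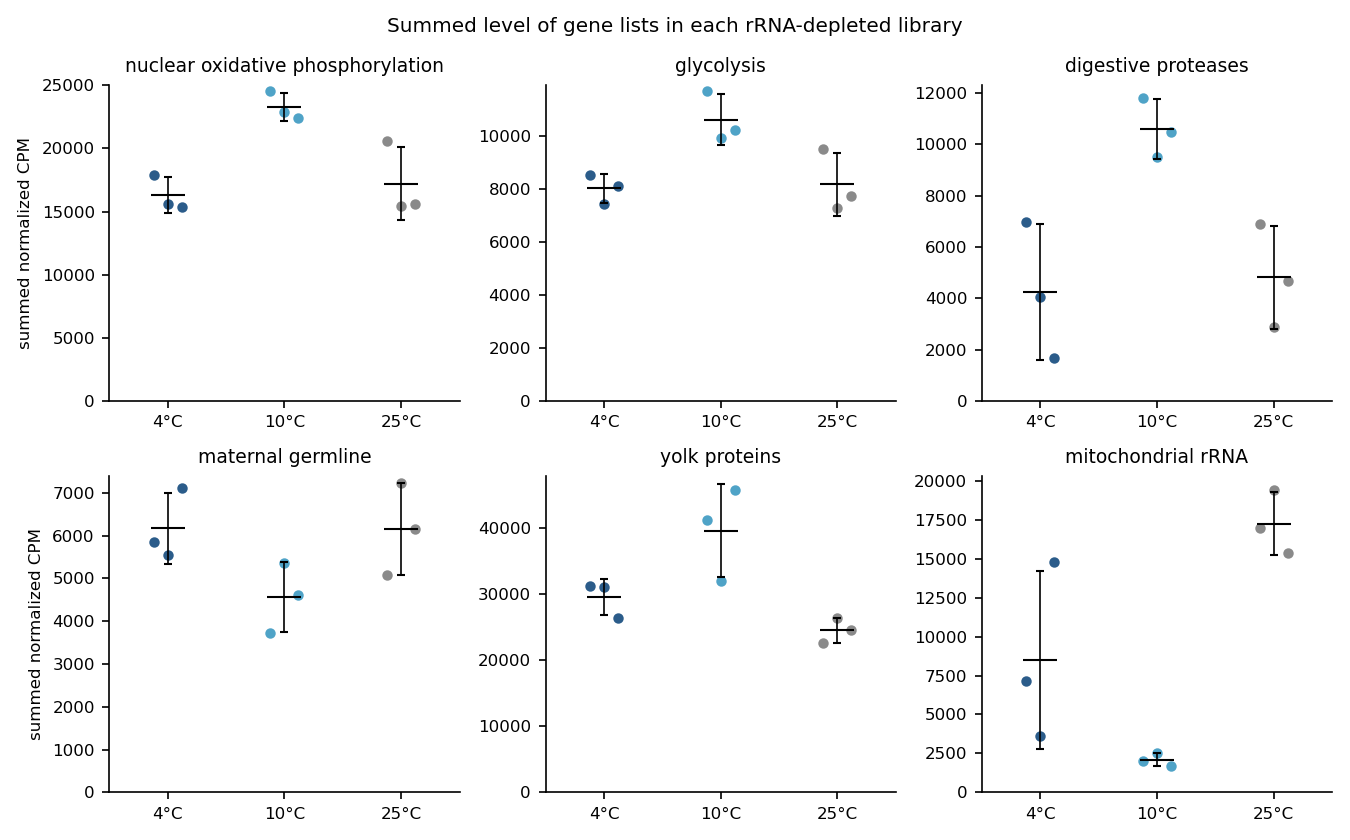
Summed normalized CPM (vertical axis, from 0) of 6 gene lists in each rRNA− library at 4°C, 10°C and 25°C (horizontal axis), with the mean and SD of 3 libraries in black. The 10°C libraries lie above both other groups for oxidative phosphorylation, glycolysis, digestive proteases and, by little over 4°C, yolk proteins. They lie below both for mitochondrial rRNA, where 4°C averages 8512 CPM between 2092 CPM at 10°C and 17248 CPM at 25°C.

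Maternal and germline mRNAs lay on the other side. Of 21 measured members of this list, 17 had a positive log2 fold change, 6 were higher and 0 lower at an unadjusted p under 0.05 (against 6.63% and 4.29% of all genes), 0 passed edgeR and 3 passed DESeq2, with a median of 0.37. The 6 were osk, orb, bru1, stg, piwi and AGO3. The gene osk, which shares most of its exons with lncRNA:osk, encodes Oskar, which organises the pole plasm of the egg, and had 904, 816 and 962 CPM at 4°C, 478, 726 and 595 CPM at 10°C and 698, 1016 and 769 CPM at 25°C. It was higher at 4°C than at 10°C in all 3 libraries (0.58 ± 0.18, edgeR adjusted p = 0.314) and overlapped 25°C. The oocyte mRNA regulator orb had 481, 504 and 511 CPM at 4°C against 237, 308 and 336 CPM at 10°C (0.76 ± 0.16), and stg, encoding the Cdc25 phosphatase String that is stored in eggs, had 162, 77.3 and 141 CPM against 28.3, 67.6 and 46.7 CPM (1.42 ± 0.39). The most abundant member, the cyclin gene CycB, had a log2 fold change of 0.62 and overlapping groups. Without the first 10°C library, which held the lowest summed level of the list at 3730 CPM, the median was 0.18, and with the trend on length removed it was 0.24. Without the third 4°C library it was 0.27, and 15 of the 21 members had a positive log2 fold change.

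Egg yolk and eggshell genes, also of the adult female but short, did not share this side. Yp1 had 17274, 15623 and 11590 CPM at 4°C, 21205, 16352 and 22850 CPM at 10°C and 12375, 13698 and 13128 CPM at 25°C, and Yp2 was at -0.43 ± 0.18. The 4°C and 10°C libraries of Yp1 overlapped (-0.44 ± 0.20, edgeR adjusted p = 0.456). Summed over the 3 yolk genes, the level was 31130, 31082 and 26384 CPM at 4°C and 41062, 31850 and 45683 CPM at 10°C. It was 22511, 26401 and 24469 CPM at 25°C. The summed 4°C libraries thus lay below every 10°C library, though by little for the second 10°C library. At an unadjusted p under 0.05, 2 yolk genes were lower and 0 higher (against 4.29% and 6.63% of all genes). The 3 yolk genes together made up 2.99% ± 0.269 of counts at 4°C, 3.87% ± 0.612 at 10°C and 2.45% ± 0.196 at 25°C, with SDs over 3 libraries. Of 14 chorion genes, 3 were lower and 0 higher at an unadjusted p under 0.05 (against 4.29% and 6.63% of all genes), with a median of -0.25. Their summed level was 21349, 22304.5 and 19259 CPM at 4°C, below 24800, 25054 and 25217 CPM at 10°C. At 25°C it was 17873, 18668 and 24896.5 CPM. Over 16 gene classes whose summed shares were compared, 3 against 3 libraries cannot give an exact 2-sided permutation p under 0.1, and the smallest adjusted p was 0.229. Among the classes at that value were oxidative phosphorylation, with 1.65% ± 0.117 of counts at 4°C and 2.29% ± 0.0957 at 10°C, digestive proteases, with 0.426% ± 0.261 and 1.04% ± 0.0879, and maternal germline genes, with 0.624% ± 0.0853 and 0.450% ± 0.0919 (SD over 3 libraries). Shares depend on the total they are taken of. Of the full counts, which keep rRNA reads and in which the third 4°C library holds few of them, oxidative phosphorylation made up 0.955% ± 0.395 at 4°C and 1.02% ± 0.0975 at 10°C (exact permutation p = 0.9) and yolk genes 1.69% ± 0.610 and 1.70% ± 0.202 (exact permutation p = 1.0), while the list medians of log2 fold changes, which are scaled by TMM, were -0.57 and -0.44 on the same counts.

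Hormone receptors and their targets lay above 10°C in part. Of 16 measured ecdysone genes, 5 were higher and 0 lower at an unadjusted p under 0.05 (against 6.63% and 4.29% of all genes), with a median of 0.36. EcR, the ecdysone receptor, had 113, 92.3 and 109 CPM at 4°C, 69.9, 66.3 and 68.1 CPM at 10°C and 99.8, 123 and 115.3 CPM at 25°C, and the 10°C libraries alone were low (0.62 ± 0.15, edgeR adjusted p = 0.273). Eip75B, a nuclear receptor induced by ecdysone and the most abundant of the list, was at 0.49 ± 0.16, and ftz-f1 at 0.75 ± 0.20. Of 8 juvenile hormone genes, 6 had a positive and 2 a negative log2 fold change, with a median of 0.18. At an unadjusted p under 0.05, 3 were higher and 0 lower (against 6.63% and 4.29% of all genes). Both juvenile hormone receptors, Met and gce, were at 0.78 ± 0.24 and 0.51 ± 0.16. Of 13 insulin and FOXO genes, 8 had a positive and 5 a negative log2 fold change, with a median of 0.21. At an unadjusted p under 0.05, 3 were higher and 1 lower (against 6.63% and 4.29% of all genes). The insulin receptor InR was at 0.51 ± 0.18 and the transcription factor foxo at 0.58 ± 0.17, while the relaxin-like peptide gene Ilp8 was at -0.58 ± 0.23. These are long genes except Ilp8, which is 867 bases long in its exons, and the ecdysone median was 0.19 with the trend on length removed. Of the ecdysone genes, of a median of 5513.5 bases, 37.5% lay above 10°C in all libraries. In the longest eighth of all genes 32.2% did, and in the next longest 17.5%, with medians of 0.23 and 0.13.

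**Figure D4:**
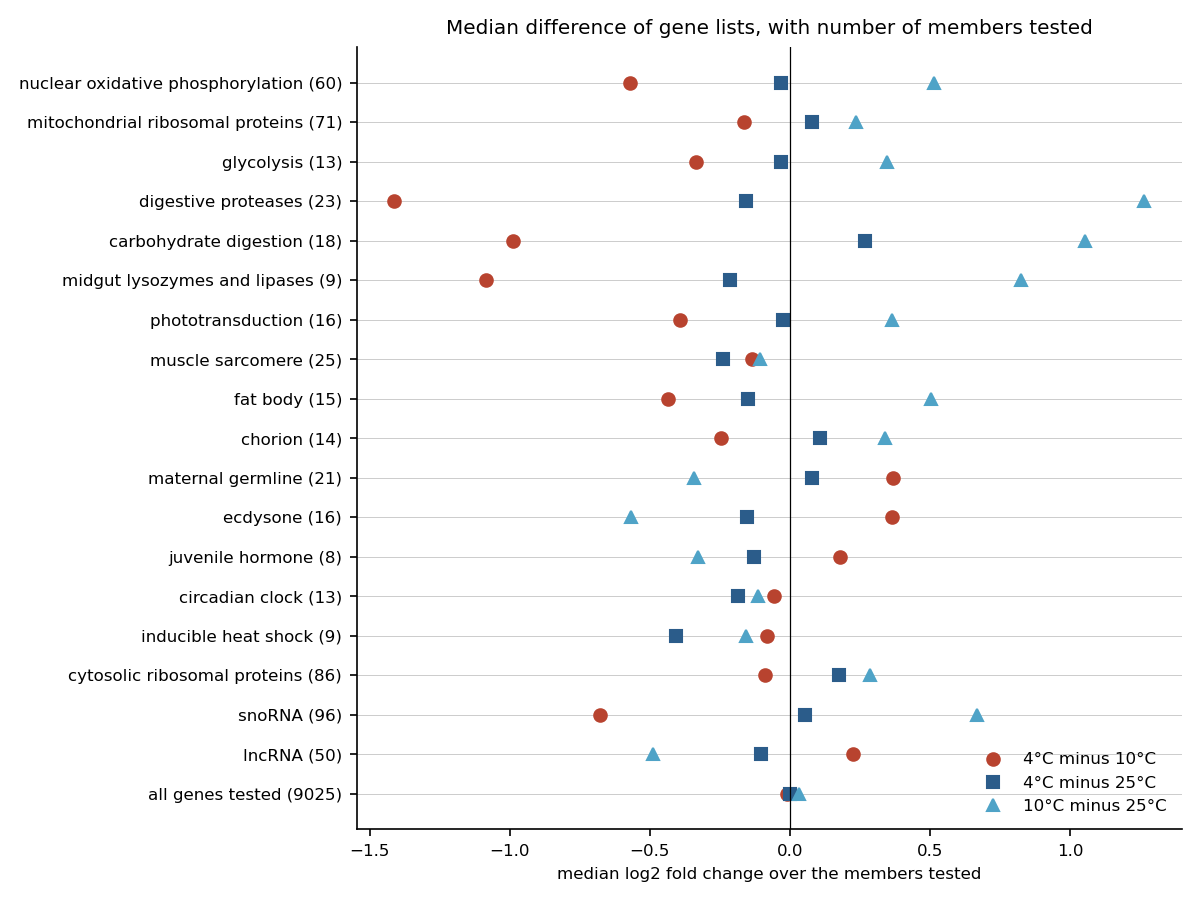
Median log2 fold change (horizontal axis) over the measured members of 19 gene lists (vertical axis, number of members tested in brackets) for 4°C minus 10°C (red circles), 4°C minus 25°C (blue squares) and 10°C minus 25°C (light triangles). The comparisons share libraries and are shown side by side. For oxidative phosphorylation they are -0.57, -0.03 and 0.52, and for digestive proteases -1.41, -0.16 and 1.27.

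Genes that the study names are given next. The clock gene vri, a repressor of Clk, had 193, 186 and 184 CPM at 4°C, 162, 153 and 195 CPM at 10°C and 95.9, 82.8 and 97.0 CPM at 25°C. Both cold groups were thus above 25°C and overlapped each other (0.14 ± 0.15, edgeR adjusted p = 0.780). The long noncoding RNA lncRNA:CR32368 had 28.0, 15.3 and 13.5 CPM at 4°C, 70.6, 30.9 and 65.6 CPM at 10°C and 25.7, 16.9 and 19.2 CPM at 25°C, so that it was high at 10°C alone (-1.55 ± 0.39, edgeR adjusted p = 0.276). lncRNA:CR31044 overlapped across groups at 30.8, 40.5 and 47.6 CPM at 4°C against 16.2, 33.7 and 31.8 CPM at 10°C. The small heat shock gene Hsp22, whose exons lie within those of CG4456 in the annotation, and the muscle gene Mf were near equal, at -0.08 ± 0.40 and -0.09 ± 0.17. Of 9 inducible heat shock genes 1, Hsp68, had an unadjusted p under 0.05, beside 10.9% of all genes. It had 15.8, 16.7 and 19.5 CPM at 4°C against 26.1, 22.9 and 27.3 CPM at 10°C (-0.55 ± 0.22, edgeR adjusted p = 0.406). The most abundant, Hsp83, had 2349, 2833 and 3331 CPM at 4°C against 2110, 2665 and 2990 CPM at 10°C, which overlapped.

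Among the cold acclimation genes, Fst, known as Frost and induced by cold, had 7.21, 14.0 and 10.9 CPM at 4°C, 14.3, 12.5 and 40.3 CPM at 10°C and 4.11, 1.22 and 2.74 CPM at 25°C. Like vri it was above 25°C in all 6 cold libraries, and the cold groups overlapped (-1.05 ± 0.48, edgeR adjusted p = 0.478). Desat1, a fatty acid desaturase and the most abundant of that list, had 1529, 1097 and 1348 CPM at 4°C against 1254, 1105 and 1042 CPM at 10°C. These genes were few, and 0 of 6 cold acclimation genes was higher and 1 lower at an unadjusted p under 0.05 (against 6.63% and 4.29% of all genes).

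Among noncoding RNAs the third 4°C library stood apart. Over 96 snoRNAs the median log2 fold change was -0.68 with that library and -0.14 without it. Of 50 lncRNAs, 7 were higher and 3 lower at an unadjusted p under 0.05, beside 6.63% and 4.29% of all genes. lncRNA:CR45054 had 37.1, 33.0 and 36.9 CPM at 4°C, 18.8, 23.6 and 19.4 CPM at 10°C and 33.1, 36.2 and 44.7 CPM at 25°C, and the 10°C libraries alone were low (0.79 ± 0.20, edgeR adjusted p = 0.273). The most abundant lncRNA, lncRNA:CR40469, had 3085, 2678 and 329 CPM at 4°C against 5052, 3996 and 4078 CPM at 10°C, with the low value again in the third library.

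The difference between 4°C and 10°C ran with the length of the gene. When the tested genes were cut into 8 bins by exonic length, the median log2 fold change was -0.23 in the shortest (up to 922 bases, 1124 genes) and 0.23 in the longest (over 5532 bases, 1122 genes), and it stepped up through the bins between. In the longest bin 32.2% of genes had all 4°C libraries above 10°C and 1.34% below, and in the shortest 0.979% and 17.5%. The same medians ran from 0.27 in the shortest to -0.33 in the longest bin for 10°C against 25°C, and from -0.01 to -0.08 for 4°C against 25°C. Taken library by library against the mean of all 9, the longest minus the shortest bin was 0.11, 0.05 and 0.19 at 4°C, -0.46, -0.33 and -0.36 at 10°C and 0.11, 0.29 and 0.24 at 25°C. All 3 libraries at 10°C thus stood apart on the side of short genes. The genes of smallest p on the higher side had a median exonic length of 7501 bases and those on the lower side 1109 bases. RNA integrity values and fragment lengths were not analysed here, and their part in this trend was not tested.

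**Figure D5:**
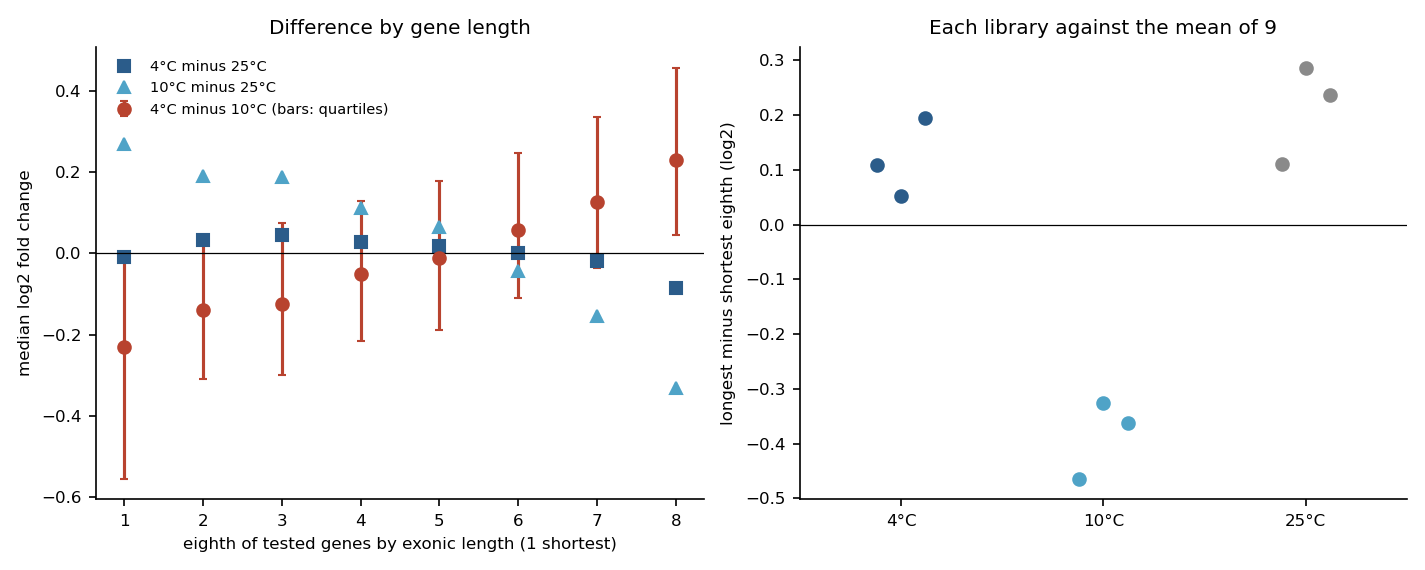
Left, median log2 fold change (vertical axis) in 8 bins of tested genes from shortest to longest exons (horizontal axis) for 4°C minus 10°C (red, with quartiles), 4°C minus 25°C (blue squares) and 10°C minus 25°C (light triangles). Right, longest minus shortest bin in log2 units for each library against the mean of 9 libraries, which is -0.46 to -0.33 at 10°C and 0.05 to 0.29 at 4°C and 25°C.

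In the polyA+ libraries edgeR also called 0 genes higher and 0 lower among 8199, with 237 (2.89%) at an unadjusted p under 0.05, while DESeq2 called 0 higher and 11 lower (0.397% of 2769). The spread between replicates was larger there, with edgeR's common coefficient of biological variation at 0.618, against 0.250 in the rRNA− libraries. The polyA+ median was -1.10 for oxidative phosphorylation, -2.59 for digestive proteases and -0.83 for glycolysis, on the same side as in the rRNA− libraries. These medians are given without the spread between polyA+ libraries, which could be wide on the lower side too. Sodh2 had 107.5, 70.0 and 8.44 CPM at 10°C against 27.4, 28.0 and 17.5 CPM at 4°C. For maternal germline genes the polyA+ median was 0.21, also positive, but polyA+ replicates differed widely in such genes. Of its members, bru1 was at -0.27 ± 1.34, with 488 CPM in the third 10°C library, and CycB at 0.58 ± 0.66. The gene smg had 386.7, 39.3 and 85.96 CPM at 4°C against 15.6, 5.56 and 578.7 CPM at 10°C (-0.24 ± 1.59). The side of the germline median is therefore not taken as a result. Of the lists described here, those on the other side in polyA+ libraries were chorion genes (0.08), inducible heat shock genes (0.11), mitochondrial mRNAs (-0.54 over 10 genes) and juvenile hormone genes (-0.17 over 7 genes). A single snoRNA was measured there, so that list was not compared. Of the 10 named genes on the lower side, 9 had a negative polyA+ log2 fold change, and of the 10 on the higher side 6 had a positive one. Over all genes the polyA+ median was -0.07. These counts of signs stand without a share over all genes and give no result about the named genes. For Jon65Aiv the polyA+ value was -2.44 and for COX4 -1.02. The trend on length had the same course, from -0.25 in the shortest to 0.05 in the longest bin. The sources used here do not state whether both library types were made from the same pools of flies, so the polyA+ values are not taken as independent of the others. The difference of the response between types was tested in 1 fit of 12 libraries, and 0 of 9388 genes passed an adjusted p of 0.05, with 87 (0.927%) at an unadjusted p under 0.05 and a smallest adjusted p of 0.857.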

How the data were processed

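The authors deposited, per gene, raw counts of reads with no normalization. Reads were aligned to dm6 in the TAP pipeline, and the submitters' processing notes name STAR 2.7.7a, Salmon 1.4.0, SAMtools, R 4.2.2 and DESeq2. Which of STAR and Salmon gave the counts is not given in the sources used here. In the equalized table the authors had taken out rRNA reads, and the full table keeps them. The division of reads between overlapping genes differs between both tables. Some genes, such as LysB, ND-AGGG and the histone genes, hold fewer reads in the equalized one. Results are on equalized counts unless the full counts are named.

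The 6 rRNA− libraries at 4°C and 10°C were tested with edgeR 4.0.16 (R 4.3.3, limma 3.58.1) by TMM, filterByExpr on both groups and a robust quasi-likelihood fit, without a replicate block. Calls needed an adjusted p (Benjamini-Hochberg) under 0.05 together with a 2-fold change. The polyA+ libraries and the difference between types were fitted likewise. The labels call the replicates biological, and p-values measure the spread between these pools of flies. The SE of a log2 fold change was approximated as its size over the root of F. DESeq2 1.42.0 was an alternative. CPM were scaled by TMM over 9 libraries. Symbols, positions and exonic lengths came from the Ensembl annotation, release 115, of the dm6 assembly, which matched 17710 of 17807 genes. Shares of gene classes were compared by exact 2-sided permutation over 3 against 3 libraries. In these 6 libraries 3 counts stand for 0.780 to 1.49 CPM, which limits precision for rare transcripts and covers counting error only. Plots were drawn with matplotlib 3.10.9.

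On simulated counts for this comparison (8869 genes), edgeR recovered 86 of 96 genes changed 4-fold, with 12 false calls among 128, and 38 of 98 genes changed 2-fold when no minimum fold was asked. With no gene changed (8864 genes) edgeR made 1 call and DESeq2 12. The genes named were the 10 of smallest p on each side whose groups did not overlap, those the study names, and the most abundant member of a list. Others were named after their values were seen. The libraries, the lists and the tests were chosen with earlier results of these data known. Promoter motifs, isoforms and introns were not analysed here. No histone gene passed the filter on low counts in the equalized counts, from which most histone reads are missing. Histones made up 0.000253% of equalized counts at 4°C and 0.000269% at 10°C, against 0.144% and 0.121% of the full counts.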

Additional observations from a re-analysis of the deposited data

How the results depend on the processing

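Where edgeR called 0 genes higher and 0 lower, DESeq2's Wald test called 6 higher and 19 lower, the fit with no filter on low counts 1 and 1, and the fit with the length trend removed 1 and 2. The fit of all 15 rRNA− libraries, those of heat-exposed flies among them, and the full counts each called 0 higher and 1 lower. Leaving out single libraries gave 1 to 4 genes higher and 2 to 51 lower. The 51 came without the first 4°C library and held 9 digestive proteases and 0 nuclear genes of oxidative phosphorylation. In polyA+ libraries DESeq2 called 11 genes lower where edgeR called 0.

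No pairing of samples by replicate number was assumed. Same-numbered deviations correlated at 0.0216, -0.0831 and 0.108 across genes, and differently numbered ones at -0.108 to 0.104. These are deviations from means of 3 libraries and cannot exclude a batch shared by replicate number. With the replicate number as a block, 1 gene was called higher and 0 lower, and 0 genes differed in response between library types.

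On the full counts the log2 fold change was -0.52 for PGRP-LD and 0.65 for CG42455, and with the length trend removed -0.0084 for vri and 0.053 for the median of cytosolic ribosomal proteins. Hsp22 was at 0.019 on full counts and 0.039 on thinned counts, and between -0.34 and 0.14 without single libraries, where Mf was between -0.25 and 0.017. On full counts the share differences, in percentage points, had the opposite sign for histones (0.0231), cytosolic ribosomal proteins (1.49), chorion (0.131), vitelline membrane (0.0117) and sarcomere genes (0.161). The longest minus the shortest length bin was 0.42 with no filter, 0.013 with the trend removed and 0.43 to 0.52 without single libraries. The share of separated genes with 4°C in the middle was 72.7% with the trend removed and 67.1% to 90.4% without single libraries. Recomputed values were labelled by a rule of their kind: closeness for counts of calls, list medians, the length trend and the order share, and sign alone for class shares. For single genes, none of which passed in the main fit, the same sign and no pass were enough to count as unchanged. Under these rules 790 were unchanged, 16 turned direction, 16 newly passed the threshold and 37 moved. The oxidative phosphorylation and yolk share differences were -0.0664 and -0.0125 percentage points on full counts, and the share of separated genes with 10°C in the middle was 2.05% to 12.2% without single libraries. The cause of these changes was not tested.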

Other observations

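Of 16 genes of antimicrobial and related peptides, 4 had a positive and 12 a negative log2 fold change, with a median of -0.53, and 2 were higher and 2 lower at an unadjusted p under 0.05, beside 6.63% and 4.29% of all genes. Against most of that list, BomS1, which encodes a short immune-induced peptide secreted into the hemolymph, had 4.43, 23.5 and 22.1 CPM at 4°C and 2.94, 3.47 and 6.96 CPM at 10°C, with overlapping groups and a log2 difference of 1.93. It was chosen after its values were seen. Pebp1 had 55.7, 61.0 and 54.1 CPM at 4°C, 214, 90.5 and 266 CPM at 10°C and 114, 53.3 and 77.3 CPM at 25°C, with all 4°C libraries below those at 10°C and a DESeq2 adjusted p of 6.74e-05.

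Between equalized and full counts, 8638 of 9025 genes agreed within 10% in all 6 libraries, and 200 were off by over 50% in at least 1. Of these 200, 144 were among the 261 genes overlapped by at least 50% on the same strand. In the fits without single libraries 22 genes were called with a log2 fold change over 6 in size, and 21 of them were overlapped in this way. One is stnB, with 450, 124 and 99 counts at 4°C and 0, 0 and 0 at 10°C.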
